A study of Mus musculus with 5 samples.

Results

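The data described here are the places where the DNA methylation of 1 mouse liver cell, single hepatocyte 2 (cell 2), departed from that of a reference pool of liver cells. The series compared 4 single hepatocytes, each against the same pool, by reduced representation bisulfite sequencing, an assay that reads cytosine methylation in restriction fragments of the genome. The members are the 10-kb bins that the authors deposited for cell 2. There were 509 of them among the 1476 such bins of the 4 cells (34.5%). Of these, 426 were less methylated in the cell than in the pool, called loss here, and 83 were more methylated, called gain.

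All cells came from livers of C57BL/6 mice supplied by the National Institute of Aging, which were perfused with collagenase, and hepatocytes were picked singly with hand-held capillaries. The sources used here give neither the age of the mice nor which animal a cell came from. The DNA was cut with MseI, which recognises TTAA. Cells 1 and 2 received 2 ng of salmon DNA as carrier and cells 3 and 4 received 2 ng of tRNA cDNA. Each cell is 1 library without a replicate, so comparisons between cells compare libraries and not animals. That the cell was a hepatocyte rests on the picking, because methylation calls hold no expression. Of 26 marker genes of 6 liver cell types on the chromosomes used, Ptprc had a loss bin and Kdr a gain bin, and 0 of the 7 hepatocyte markers had either. Of all 47283 annotated genes 0.954% had a loss bin and 0.224% a gain bin within 2000 bp, the distance used for every count of genes here.

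In mammals methyl groups sit mostly on cytosines that are followed by guanine, the CG dinucleotides. The enzyme DNMT1 copies the pattern when a cell divides, and TET enzymes start its removal. Promoters rich in CG are usually unmethylated, while gene bodies and most other sequence are methylated. The adult hepatocyte is a long-lived, rarely dividing and often polyploid cell that makes plasma proteins and bile acids and handles lipids and foreign compounds.

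Promoters that lay wholly inside the deposited span of a bin show the places at the level of sequence, though which of their cytosines were measured is unknown. The sequences are 300 bases each, from 250 before to 50 after a gene's start, from RefSeq on the build GRCm38.p6, the assembly of the deposited mm10 coordinates. They are written 5′ to 3′ on the gene's strand with each CG in capitals. Only genes with a name of their own, not Gm or Rik numbers, were taken, 1 for each bin, with ties settled by chromosome and start. Under that rule the first 3 are those of the lowest-scoring loss bins that no other cell held. Passed over for their names were Gm14488 and Gm39782 (score 67, 3 CG each) and Gm9936 (167, 18 CG), and the last place was tied at 182 with Luc7l3 (30 CG) and Rxfp2 (7 CG). Cfap45 encodes a protein of the cilium, and its promoter (chr1:172520880-172521179, plus strand) holds 16 CG. Scgb2b3 is a secretoglobin gene (chr7:31362051-31362350, minus strand, 2 CG). Epb41 encodes a protein of the red cell membrane skeleton (chr4:132049029-132049328, minus strand, 37 CG).
Cfap45: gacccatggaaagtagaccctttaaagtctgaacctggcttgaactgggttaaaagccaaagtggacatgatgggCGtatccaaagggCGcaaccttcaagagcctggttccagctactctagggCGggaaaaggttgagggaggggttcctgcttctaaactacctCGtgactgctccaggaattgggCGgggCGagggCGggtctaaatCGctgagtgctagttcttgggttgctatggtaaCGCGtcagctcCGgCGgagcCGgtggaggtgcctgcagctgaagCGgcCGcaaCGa
Scgb2b3: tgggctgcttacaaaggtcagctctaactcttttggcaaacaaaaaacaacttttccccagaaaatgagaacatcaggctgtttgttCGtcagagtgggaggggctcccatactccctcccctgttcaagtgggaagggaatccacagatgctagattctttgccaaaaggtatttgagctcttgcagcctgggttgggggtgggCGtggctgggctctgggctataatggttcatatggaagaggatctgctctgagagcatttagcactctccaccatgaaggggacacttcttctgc
Epb41: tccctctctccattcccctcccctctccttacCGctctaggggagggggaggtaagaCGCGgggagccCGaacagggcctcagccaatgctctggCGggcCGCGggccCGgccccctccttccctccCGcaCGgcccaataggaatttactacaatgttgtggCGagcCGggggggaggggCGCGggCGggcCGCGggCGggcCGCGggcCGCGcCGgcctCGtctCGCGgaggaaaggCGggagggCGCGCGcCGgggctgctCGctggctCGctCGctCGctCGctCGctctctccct

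The next promoters were chosen by the same rule from the highest-scoring gain bins that no other cell held. Passed over for their names were Gm45723 (score 933, 1 CG), 2410004I01Rik (857, 8 CG) and Gm35894 (842, 7 CG), and the last place was tied at 833 with Ndufa7 and Rps28. The rule thus left out high-scoring promoters with few CG. Thap7 encodes a zinc finger protein of the nucleus (chr16:17531003-17531302, minus strand, 29 CG). Obp2b encodes an odorant-binding protein (chr2:25736757-25737056, plus strand, 2 CG). Sipa1l2 encodes a regulator of the GTPase Rap (chr8:125569814-125570113, minus strand, 47 CG). The promoter of Rit1, a Ras-related GTPase gene (chr3:88716604-88716903, plus strand, 12 CG), is added because it lay in a loss bin and in a gain bin of cell 2 at once, and it was chosen after its values were seen.
Thap7: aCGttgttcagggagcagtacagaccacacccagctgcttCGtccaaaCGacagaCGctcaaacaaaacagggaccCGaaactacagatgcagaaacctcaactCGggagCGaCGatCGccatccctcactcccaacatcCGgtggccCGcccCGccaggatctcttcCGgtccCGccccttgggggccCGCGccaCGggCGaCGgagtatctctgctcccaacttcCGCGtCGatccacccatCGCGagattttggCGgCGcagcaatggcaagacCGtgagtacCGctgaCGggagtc
Obp2b: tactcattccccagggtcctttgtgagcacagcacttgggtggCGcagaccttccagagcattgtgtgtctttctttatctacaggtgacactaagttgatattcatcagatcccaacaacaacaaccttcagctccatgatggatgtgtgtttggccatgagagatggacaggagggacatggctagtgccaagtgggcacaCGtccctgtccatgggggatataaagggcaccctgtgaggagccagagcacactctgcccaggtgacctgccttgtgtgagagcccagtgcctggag
Sipa1l2: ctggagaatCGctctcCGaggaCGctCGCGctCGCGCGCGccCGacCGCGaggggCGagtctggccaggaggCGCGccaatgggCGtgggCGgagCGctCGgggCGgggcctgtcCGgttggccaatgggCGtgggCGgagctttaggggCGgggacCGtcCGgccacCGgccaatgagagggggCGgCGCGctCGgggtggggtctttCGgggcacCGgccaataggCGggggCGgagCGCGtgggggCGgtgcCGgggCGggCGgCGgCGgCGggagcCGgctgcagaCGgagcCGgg
Rit1: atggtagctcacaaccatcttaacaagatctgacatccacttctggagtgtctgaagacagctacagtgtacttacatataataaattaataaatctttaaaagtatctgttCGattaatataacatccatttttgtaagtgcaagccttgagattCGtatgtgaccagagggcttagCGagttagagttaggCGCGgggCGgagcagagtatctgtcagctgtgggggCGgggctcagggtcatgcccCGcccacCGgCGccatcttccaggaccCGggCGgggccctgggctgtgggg

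TTAA, which reads the same on both strands, was not found in the windows of Scgb2b3, Epb41, Thap7, Obp2b and Sipa1l2, and was found 2 times in that of Cfap45 and 4 times in that of Rit1. Of 30970 promoters on the chromosomes used, 52.4% held it. Among promoters inside bins of cell 2 the share was 45.2% for loss (52 of 115) and 44.4% for gain (12 of 27).

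Promoters in gain bins of cell 2 held more CG than those in its loss bins. The median was 21 CG in 27 promoters of gain bins and 10 in 115 promoters of loss bins, against 7 over all promoters. At least 15 CG were held by 55.6% of the promoters in gain bins, 37.4% of those in loss bins and 34.9% of all promoters. In cell 3 the medians were 22.5 for gain (24 promoters) and 16 for loss (40 promoters). In cell 1 the order was the other way, 10 for gain (11 promoters) and 12 for loss (115 promoters), and in cell 4 it was 9 (2 promoters) and 13.5 (14 promoters). The higher CG content of gain was thus seen in 2 of the 4 cells. Promoters of 1 bin share a place and alternative starts of 1 gene overlap, so no test was made. Within the loss bins of cell 2 the median was 9 for 81 promoters of bins that it alone held and 14 for 34 promoters of shared bins.

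The CG-rich promoters in gain bins of cell 2 belonged to genes of several kinds. Besides Thap7 and Sipa1l2 they were those of Son, a splicing protein gene (31 CG), Eif4a2, a translation initiation helicase gene (36 CG), Itpr3, a calcium release channel gene (30 CG), and Cdk5r2, which encodes an activator of the kinase CDK5 (33 CG), among 15 with at least 15 CG. These 4 were chosen after their values were seen. Bins with at least 1 promoter wholly inside made up 23.5% of the gain bins (19 of 81 outside chromosome 18, whose promoters were not used here) and 19.9% of the loss bins (82 of 413). The exact Clopper-Pearson 95% intervals, 14.8 to 34.2% and 16.1 to 24.0%, overlap. These intervals, like all others given here, cover counting error only.

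**Figure D1:**
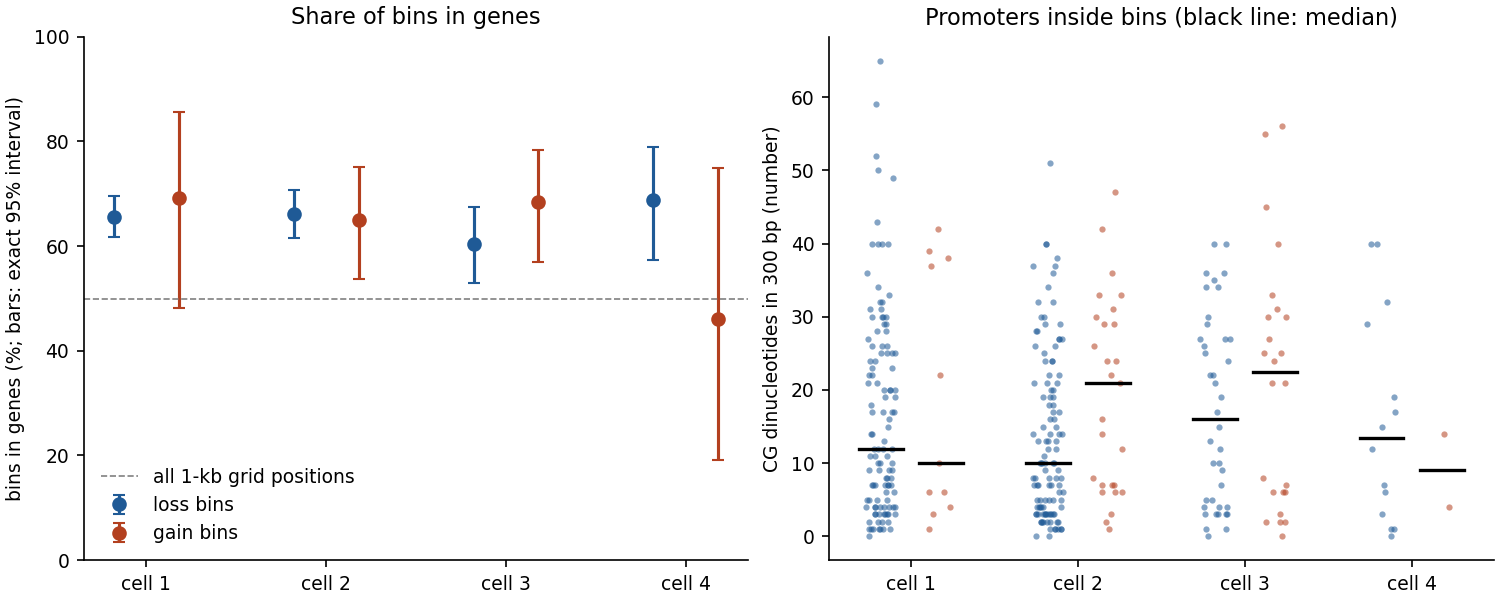
Left, share of the 10-kb bins of each cell whose midpoint lay in a gene or within 1000 bp of a gene end (y axis, percent), for loss and gain bins, with exact 95% intervals, and the share of all 1-kb grid positions as a dashed line (49.9%). Right, CG dinucleotides in the 300 bases of each promoter inside a bin (y axis, number), with medians as black lines: in cell 2 the loss and gain bins lie at 66.2% and 65.1% on the left, and the promoter medians at 10 and 21 on the right.

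Most bins of both directions lay in genes. A bin was placed by its midpoint. Of the 426 loss bins of cell 2, 48 (11.3%) lay within 1000 bp of a gene end, 234 (54.9%) elsewhere in a gene and 144 (33.8%) between genes. Of the 83 gain bins, 8 (9.64%), 46 (55.4%) and 29 (34.9%) did. Over all positions of the 1-kb grid between the outermost genes of each chromosome, 6.22% fall near a gene end, 43.7% inside genes and 50.1% outside them, but which of these positions the assay could read is unknown.

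The genic share, gene ends and bodies together, was 66.2% for loss (interval 61.5 to 70.7%) and 65.1% for gain (53.8 to 75.2%). The odds ratio was 1.05 (two-sided Fisher's exact test, p = 0.899, adjusted p = 1 over 7 tests). Against the loss bins of the other cells, with bins held by both cells left out, the odds ratio was 1.05 for cell 1 (67.4 against 66.3%), 1.18 for cell 3 (68.9 against 65.2%) and 0.502 for cell 4 (66.8 against 80.0%, 30 bins). For gain it was 0.938, 0.862 and 1.93. None of these 7 tests passed, with each adjusted p at 1, and the lowest unadjusted p was 0.159, for loss against cell 4. The tests treat bins as independent, though bins next to each other are not. They compare single libraries, not animals or conditions. Loss bins that cell 2 alone held were genic in 69.0% of cases (interval 63.1 to 74.5%) and those shared with another cell in 61.4% (53.3 to 69.0%).

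The balance of loss and gain in cell 2 was 5.13 loss bins for each gain bin. Loss made up 83.7% of its bins (interval 80.2 to 86.8%), while cells 1, 3 and 4 had shares of 95.8, 70.0 and 85.6%. Each bin has a deposited score from 0 to 1000. The scores of loss bins in cell 2 ran from 0 to 683 with a median of 436.5 (quartiles 333 and 538), and those of gain bins from 773 to 933 with a median of 833 (794.5 and 862). The ranges of loss and gain do not overlap. The median loss score was 438 in cell 1, 455 in cell 3 and 333 in cell 4. The score is the authors' own value, and the sources used here do not define it.

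Most bins of cell 2 were missing from the other cells. By the same chromosome and start, 268 of its 426 loss bins (62.9%, interval 58.1 to 67.5%) were in no list of cells 1, 3 and 4. Of the 158 shared loss bins, 64 were held with cell 1 alone, 17 with cell 3 alone and 12 with cell 4 alone. Another 30 were held with cells 1 and 3, 13 with cells 1 and 4, 7 with cells 3 and 4, and 15 with all 3. Of the 83 gain bins, 79 (95.2%, interval 88.1 to 98.7%) were in no other list, 3 were held with cell 1 and 1 with cell 4. In cells 1, 3 and 4 the share of loss bins held by no other cell was 73.1, 45.1 and 18.2%. For gain it was 88.5, 100 and 92.3%, so a high share of unshared gain bins was not particular to cell 2. All lists have the pool as their common control, so bins of different cells are not independent calls.

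**Figure D2:**
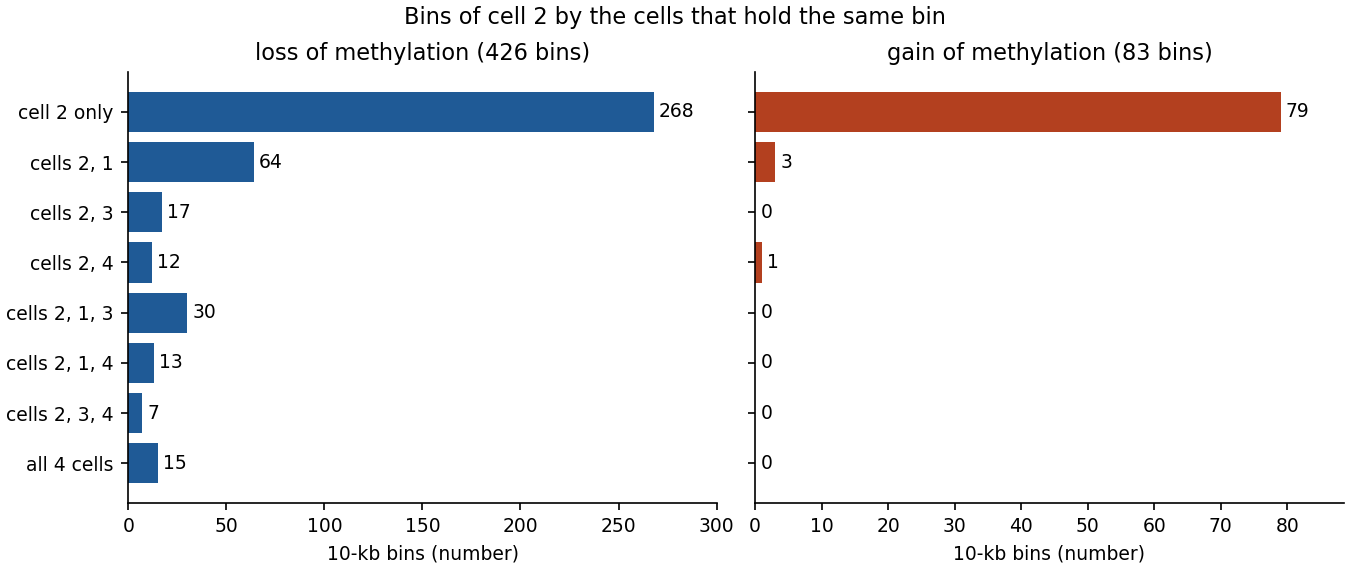
Number of 10-kb bins of cell 2 (x axis) by the set of cells that hold a bin of the same chromosome and start (y axis), for loss (left) and gain (right). The bars of cell 2 alone stand at 268 of 426 loss bins and 79 of 83 gain bins.

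The share missing went with the length of the other list. Against cell 1, with 588 loss bins, 304 of the loss bins of cell 2 were missing (71.4%). Against cell 3, with 184, it was 357 (83.8%), and against cell 4, with 77, it was 379 (89.0%). Read the other way, cell 2 held 20.7% of the loss bins of cell 1, with 37.5 and 61.0% for cells 3 and 4. The gain lists of cells 2 and 3 were of like length, 83 and 79 bins, and shared 0 (exact upper bound 4.35% of the bins of cell 2). Cell 2 had the same carrier as cell 1 and another than cells 3 and 4, and the part of the carrier in the sharing was not tested. A bin that is missing from a list may not have been covered in that cell, since the covered bins are unknown.

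Few of the bins that cell 2 alone held overlapped a bin of another cell or lay within 10000 bp of one. Of the 268 loss bins, 9 overlapped a loss bin of another cell with another start, 17 lay within 10000 bp of any bin of another cell and 82 lay more than 1 Mb from one. Within 100000 bp lay 58, and the median distance was 445500 bp. What distance randomly placed bins would show was not tested. Of the 79 gain bins, 1 overlapped a gain bin of another cell. Within 10000 bp of any bin lay 6 of them and within 100000 bp 16, with a median distance of 480000 bp. The scores of loss bins that cell 2 alone held were near those of shared bins. The medians were 417 for loss bins of cell 2 alone, 455 for those of 2 cells, 436.5 for those of 3 cells and 431 for those of all 4 cells. Scores of 200 or less were held by 25 of the 268 loss bins of cell 2 alone (9.33%), by 5 of 93 in 2 cells, 3 of 50 in 3 cells and 1 of 15 in all 4.

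Where cell 2 shared a loss bin, the scores of the 2 cells often lay far apart. Over the 122 bins shared with cell 1 the scores of cell 2 were lower in 57, higher in 64 and equal in 1. The difference, cell 2 minus cell 1, had a median of 20 with quartiles of -147.75 and 119.5, while its absolute size had a median of 134. Across these bins Pearson's r was -0.01 and Spearman's rho was -0.00014. Over the 69 bins shared with cell 3, r was 0.02 and rho 0.02. Over the 47 shared with cell 4, r was 0.17 and rho 0.16, and cell 2 had the higher score in 31 of 47. Cell 4 had the lowest median loss score of the 4 cells. These are descriptions across bins, which are not replicates, and the upper limit of loss scores narrows the range.

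**Figure D3:**
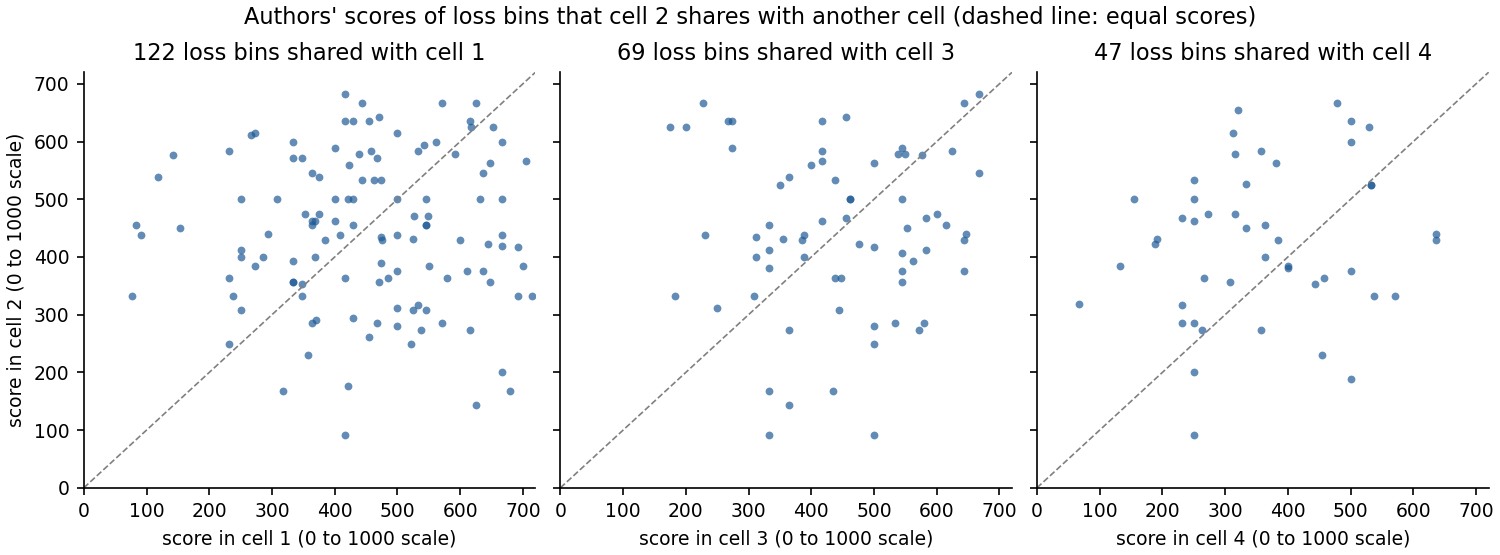
Deposited score in cell 2 (y axis) against that in cell 1, 3 or 4 (x axis) for each loss bin that both cells hold, on the authors' scale of 0 to 1000. The points of the 122, 69 and 47 shared bins spread on both sides of the dashed line of equal scores, with r of -0.01, 0.02 and 0.17.

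Single shared bins show the size of this spread. At the splicing factor gene Sf1 (chromosome 19, 6370000 to 6380000) the score was 455 in cell 2 and 83 in cell 1. At Klhl22, a ubiquitin ligase adaptor gene (chromosome 16, 17754000 to 17764000), it was 611 in cell 2 and 267 in cell 1. In both bins cell 2 had the higher score. At Acte1, an actin gene (chromosome 7, 143864000 to 143874000), it was 615 in cell 2 and 273 in cell 1, and near Gm35867 on chromosome 19 (45095000 to 45105000) it was 538 and 118, the largest gap in this direction from the mean of the other cells.

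The opposite order was seen elsewhere. In the bin from 125959000 to 125969000 on chromosome 4, without a gene within 2000 bp, the score was 167 in cell 2 and 679 in cell 1, the largest gap in the other direction by the same measure. In the gene-free bin from 101506000 to 101516000 on chromosome 5 it was 333 and 692. At Pmfbp1, a sperm protein gene (chromosome 8, 109455000 to 109465000), it was 143 in cell 2, 625 in cell 1 and 364 in cell 3. At the zinc finger gene Zscan20 (chromosome 4, 128581000 to 128591000) it was 273 in cell 2 and 615 in cell 1, and at the non-coding Gm32829 on the X chromosome (7456000 to 7466000) 385 and 700.

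Loss and gain were spread over all 19 chromosomes used. The densities, over the span between the outermost genes, were 1.71 loss bins and 0.334 gain bins per 10 Mb. Chromosome 8 had the highest density of loss (34 bins, 2.63 per 10 Mb), next to chromosome 11 (32 bins, 2.62), and chromosome 16 that of gain (6 bins, 0.612). The X chromosome had the lowest of both, with 8 loss bins (0.469) and 1 gain bin (0.0586). Chromosome 14 had the next lowest density of loss, 9 bins (0.722), while its gain, with 5 bins (0.401), was above the overall value.

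The share of loss bins also held by another cell differed between chromosomes. On the X chromosome it was 7 of 8 (87.5%, interval 47.3 to 99.7%), against 151 of 418 (36.1%, interval 31.5 to 40.9%) on the other chromosomes. For the loss bins of cell 1 on the X it was 7 of 14, for cell 3 it was 4 of 4 and for cell 4 it was 3 of 3. On the other chromosomes of cells 1, 3 and 4 it was 26.3, 53.9 and 81.1%. A bin that several cells hold is counted in each of them. The bins of cell 2 on the X, named here after their values were seen, included the body of Ofd1, a centriole and cilium gene (166420000 to 166430000, scores 462 in cell 2, 368 in cell 1 and 250 in cell 4), the body of Bcorl1, a transcriptional corepressor gene (48367000 to 48377000, 526 in cell 2 and 333 in cell 4), and an end of Bhlhb9 (135887000 to 135897000, 357 in cell 2 and 333 in cell 1). On chromosome 19, 3 of 9 loss bins were in cell 2 alone, on chromosome 5, 28 of 35, and on chromosome 14, 8 of 9. These counts per chromosome are small and were not tested.

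**Figure D4:**
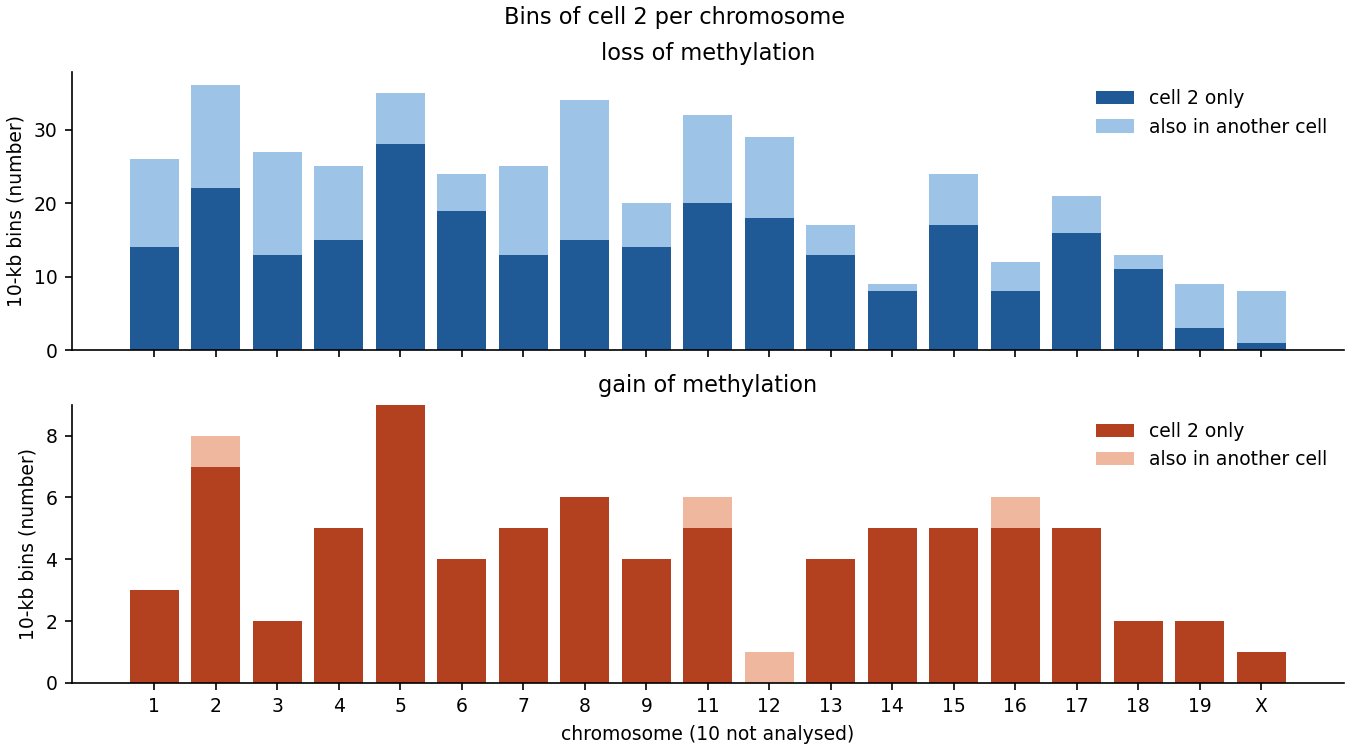
Number of 10-kb loss bins (top) and gain bins (bottom) of cell 2 (y axis) on each chromosome (x axis), with bins that only cell 2 held in dark and those also held by another cell in light colour. The X chromosome has 1 loss bin of cell 2 alone among 8, and chromosome 5 has 28 among 35.

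Bins seldom adjoined each other. The 426 loss bins formed 419 separate regions, 7 of them made of 2 bins that overlapped or touched, and the 83 gain bins formed 83. The median distance between starts of neighbouring loss bins was 2221000 bp, and 26 such distances were 100000 bp or less. The pairs, named after their values were seen, lay at Ppp1r12b, a myosin phosphatase subunit gene (scores 364 and 250), the unconventional myosin gene Myo18b (385 and 308), Cit, which encodes citron kinase of cell division (500 and 429), Mycbpap (583 and 143), Fbxo45 with Wdr53 (364 and 364), 4930519G04Rik with Mir6240 (500 and 167), and a place without a gene on chromosome 8 (667 and 533). Bins of a pair share sequence where they overlap, yet the scores at Mycbpap were 440 apart.

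Loss and gain of cell 2 met at a few places. In 3 cases a loss bin overlapped a gain bin of the same cell, and in 2 more they lay within 10000 bp. On chromosome 2 the loss bin from 180002000 to 180012000 scored 188 and the gain bin from 180003000 to 180013000 scored 857, with 9000 bp in common and no gene within 2000 bp. Cell 4 held the same loss bin with a score of 500. On chromosome 3 the loss bin from 88708000 to 88718000, near an end of both Rit1 and Khdc4, which encodes an RNA-binding protein, scored 91 in cell 2, and the gain bin from 88712000 to 88722000 scored 786, with 6000 bp in common. The promoter of Rit1 shown above lies in the shared stretch of the deposited coordinates. Cells 1, 3 and 4 held this loss bin too (417, 500 and 250) and did not hold the gain bin.

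The remaining meeting points were less tight. On chromosome 9 the loss bin at Lamb2, a laminin gene (108473000 to 108483000, score 600), and the gain bin at Ccdc71 (108464000 to 108474000, score 818) had 1000 bp in common. At Usp46, a deubiquitinase gene on chromosome 5, a loss bin (74026000 to 74036000, score 273) and a gain bin (74037000 to 74047000, score 786) lay 1000 bp apart. On chromosome 8 the loss bin from 73411000 to 73421000, which cells 1, 3 and 4 also held, scored 625 in cell 2, and a gain bin that only cell 2 held (73425000 to 73435000, score 882) followed 4000 bp after it. How many cytosines stand behind each of these calls, and where in a bin they lie, is unknown. Since bins of opposite direction overlap in 1 cell, the deposited span of a bin may not be the span of its measured cytosines. Every place, gene and promoter given for a bin refers to the deposited span.

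**Figure D5:**
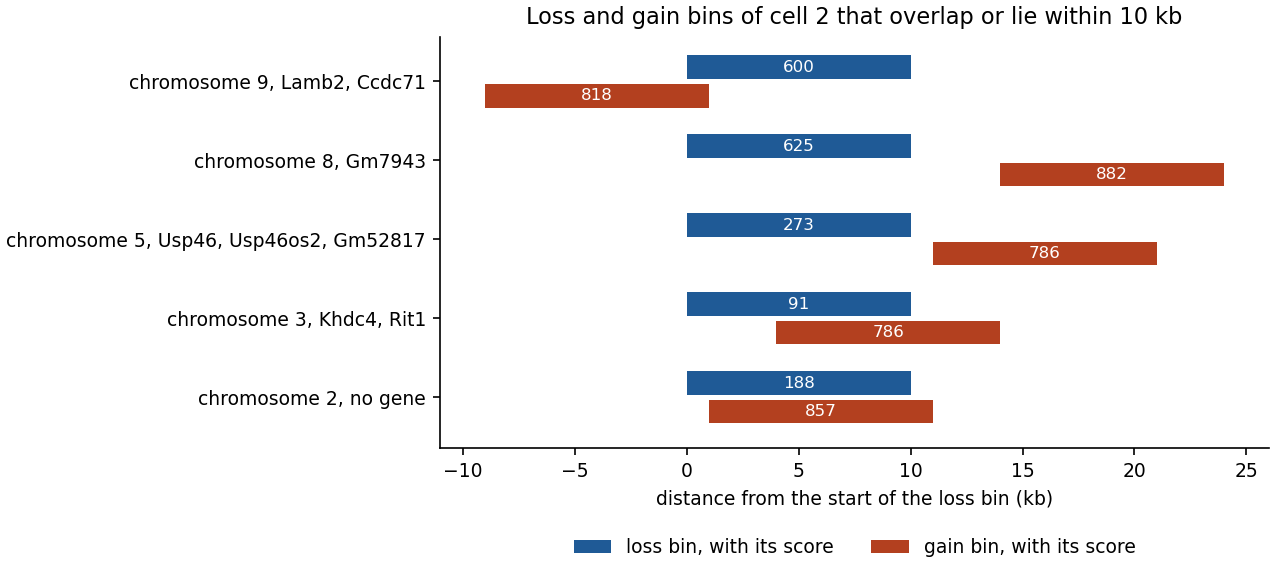
Loss bins (blue) and gain bins (red) of cell 2 that overlap or lie within 10 kb of each other, drawn by their distance in kb from the start of the loss bin (x axis) and named by chromosome and nearby genes (y axis), with the deposited score in each bar. On chromosomes 2 and 3 bins scored 188 and 857, and 91 and 786, share 9000 and 6000 bp.

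The lowest loss scores of cell 2 lay partly in genes and partly outside. The lowest of all, 0, was in a bin without a gene within 2000 bp (chromosome 3, 30733000 to 30743000) that no other cell held. The bin from 30715000 to 30725000 on chromosome 2 (score 67) held Mir3089, Gm14488 and Gm39782. The mature forms of this microRNA are shown with the seed, bases 2 to 8, in capitals, because it is the named gene with the lowest score.
mmu-miR-3089-5p: uGAGUUCAgggacagcgugucu
mmu-miR-3089-3p: aGCAUCUGcugauccugagcugu

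The bins that follow are those of lowest score, only in cell 2, with a named gene within 2000 bp. Bins without a gene that only cell 2 held, on chromosome 6 (5538000 to 5548000) and chromosome 13 (38112000 to 38122000), also scored 91. The bin at the start of Cfap45 (chromosome 1, 172515000 to 172525000) scored 71. The bin at Ccr4, a chemokine receptor gene of T cells (chromosome 9, 114484000 to 114494000), and that in Smg6, which encodes an endonuclease that cuts faulty transcripts (chromosome 11, 74967000 to 74977000), scored 77 each. Those at Scgb2b3 (chromosome 7, 31355000 to 31365000) and Def6, a guanine nucleotide exchange factor gene of lymphocytes (chromosome 17, 28214000 to 28224000), scored 91. The bin in Mycbpap (chromosome 11, 94526000 to 94536000) and that at Psd2 and Nrg2, a neuregulin gene (chromosome 18, 36015000 to 36025000), scored 143. All of these were called only in cell 2, the nearest bin of another cell being 48000 bp away at Psd2 and 1572000 bp away at Cfap45.

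The highest gain scores that only cell 2 held lay both in and outside genes. Without a named gene were bins on chromosome 8 at Gm45723 (119382000 to 119392000, score 933) and from 107893000 to 107903000 (923), on chromosome 13 from 118004000 to 118014000 (917), and on chromosome 7 near Gm51509 (125268000 to 125278000, 909). The others given here are those with a named gene, with ties settled by chromosome and start. The bin over Lztr1, an adaptor gene that restrains RAS signalling, and Thap7 (chromosome 16, 17525000 to 17535000) scored 933. Those in Obp2b (chromosome 2, 25728000 to 25738000) and in the homeodomain gene Cux1 (chromosome 5, 136249000 to 136259000) scored 917. A score of 909 was held by bins in Notch1, a receptor of cell fate signalling (chromosome 2, 26490000 to 26500000), Ulk4, a kinase-like gene (chromosome 9, 121202000 to 121212000), Gfra2, a neurotrophic factor receptor gene (chromosome 14, 70940000 to 70950000), Plec, which encodes the cytoskeletal linker plectin (chromosome 15, 76194000 to 76204000), and Polr2d, an RNA polymerase II subunit gene (chromosome 18, 31788000 to 31798000).

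Genes near the bins were counted within 2000 bp of a bin. Loss bins touched 451 of 47283 annotated genes (0.954%), among them 319 of 20630 protein-coding genes (1.55%). Gain bins touched 106 genes (0.224%), 69 of them protein-coding (0.334%). At least 1 protein-coding gene was near 65% of the loss bins and 62.7% of the gain bins, and no gene at all near 21.4 and 22.9%. Long genes have more room for a bin: loss bins touched 5.66% of 937 protein-coding genes of at least 200000 bp and 0.891% of 11111 genes under 20000 bp. For gain the shares were 0.854 and 0.243%.

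Several genes held more than 1 separate loss bin of cell 2. Igh, the locus of antibody heavy chains (chromosome 12, 113258768 to 116009954), held 3. They scored 417 (from 113411000, shared with cell 1), 438 (from 113682000, only in cell 2) and 417 (from 113972000, shared with cell 3). Smg6 held 2 (77 and 545), both only in cell 2, as did Thada, a gene linked to thyroid adenoma (538 and 545). Kcnip1, a potassium channel-interacting protein gene (667 and 286), and Rgs6, a regulator of G-protein signalling (422 and 333), each held a bin that all 4 cells had and another that cell 2 alone had. Nrg2 (143 and 429), Tenm3, a teneurin adhesion gene (462 and 353), and Snx25, a sorting nexin gene (471 and 385), held 2 each. The lncRNA genes AW549542 (636 and 500) and Gm32662 (417 and 333) and the gene 4930519G04Rik also held 2 each, as did 1 short lncRNA gene beside the latter. Separate here means without overlap: the 2 bins at 4930519G04Rik touch and form 1 of the regions given above. No gene held more than 1 separate gain bin.

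Some genes had both directions in cell 2 inside them or within 2000 bp. In Cux1 a loss bin (136381000 to 136391000, score 467) lay inside the gene besides the gain bin with the score of 917. Rere, a gene of a nuclear receptor corepressor, held a loss bin shared with cell 1 (150413000 to 150423000, score 594) and a gain bin (150498000 to 150508000, score 846). Pcnx3 (5664635 to 5689003) had a loss bin shared with cell 1 (5654000 to 5664000, score 455) and a gain bin (5691000 to 5701000, score 909) near its ends. Both lay outside the gene and count for it only through the 2000 bp limit. The loss bin overlapped Sipa1 and the gain bin lay in Map3k11, genes named here after their values were seen. The others were Khdc4, Rit1, Usp46 with its antisense gene Usp46os2, and Gm35339 (364 and 833), whose loss bin also lay outside the gene.

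Some genes had bins at different starts in different cells. Of 209 protein-coding genes near a loss bin that only cell 2 held, 25 (12%) also had a loss bin of another cell, against 518 of all 20630 protein-coding genes (2.51%), and 4 (1.91%) had a gain bin of another cell, against 0.397% of all. Of 67 protein-coding genes near a gain bin that only cell 2 held, 0 had a gain bin of another cell, and 10 (14.9%) had a loss bin of another cell. Gene length was not matched: the median was 40569 bp for protein-coding genes with a loss bin of cell 2, 27441 bp for those with a gain bin and 17335.5 bp for all. These other bins may overlap those of cell 2 or include ones that cell 2 also held. In Tenm3 cells 1 and 3 had 3 loss bins between them, of which cell 2 held the one from 49316000, and cell 3 had a gain bin. The 10 genes with gain in cell 2 and loss elsewhere were Cux1, Gm36712, Khdc4, Lztr1, Pcnx3, Rab11fip3, Rere, Rit1, Sipa1l2 and Son, of which Khdc4 and Rit1 share a bin, as do Son and Gm36712.

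The lists of liver genes held no bin. Of 56 hepatocyte secreted and metabolic genes on the chromosomes used, 0 had a loss or gain bin of cell 2, where the share of all genes would give 0.534 and 0.126 genes. The counts were also 0 in both directions for 21 liver transcription factors, 16 genes of the methylation machinery, 53 imprinted genes and 24 genes of the cell cycle and ageing. By an approximate limit, 3 divided by the number of genes, a count of 0 allows up to 5.36, 14.3, 18.8, 5.66 and 12.5% in these lists. A share like that of all genes could thus not have been told from 0. These limits are not exact Clopper-Pearson bounds.

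In the other lists single genes had a bin. Among 31 markers of other liver cell types, Ptprc, the leukocyte antigen CD45 gene, had a loss bin (chromosome 1, 138107000 to 138117000, score 542). Kdr, a receptor gene of vascular endothelial growth factor, had a gain bin (chromosome 5, 75966000 to 75976000, score 812). Both bins lay in the gene body and were only in cell 2, but cell 1 had a loss bin with another start at Ptprc. The share of all genes would give 0.296 of these markers with loss and 0.0695 with gain. Of 62 long cell adhesion and synapse genes, 3 had a loss bin (4.84%): Tenm3, Cntnap4, a contactin-associated protein gene (score 385, shared with cell 1), and Robo1, an axon guidance receptor gene (score 182, only in cell 2). Their share lay close to that of all protein-coding genes of at least 200000 bp (5.66%).

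Of 54 ion channel genes, Kcnip1 and Kcnn3, a calcium-activated potassium channel gene (score 400, in all 4 cells), had a loss bin. Of 59 developmental signalling genes, Notch2 had a loss bin (chromosome 3, 98138000 to 98148000, score 524, shared with cells 3 and 4), as did the Notch coactivator gene Maml3 (score 333, shared with cell 1), while Notch1 had the gain bin with the score of 909. Of 22 circadian clock genes, Rora, a nuclear receptor gene of the clock, had a loss bin (chromosome 9, 68950000 to 68960000, score 636, only in cell 2), and of 5 antigen receptor loci and recombinase genes, Igh had the 3 given above. The share of all genes would give 0.515 ion channel genes with loss. It would give 0.563 developmental signalling genes with loss and 0.132 with gain. For loss it would give 0.21 clock genes and 0.0477 antigen receptor or recombinase genes. These numbers take no account of gene length. Igh spans 2751187 bp, Rora 734843 bp and Maml3 418000 bp, and the median length of the ion channel genes was 372438 bp. Of all protein-coding genes of at least 200000 bp, 5.66% had a loss bin.

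Some genes outside the lists with known roles in liver cells had bins. They were chosen by hand, after their values were seen, from the 451 genes with loss and the 106 with gain. How many such genes the share of all genes would give was not worked out, so they do not offset the counts of 0 in the liver lists. Scarb1, the receptor gene that takes up cholesterol from HDL, had a loss bin in its body (chromosome 5, 125305000 to 125315000, score 667). Irs1, an adaptor gene of insulin signalling (chromosome 1, 82274000 to 82284000), scored 636, and Acaa1a, a gene of peroxisomal fatty acid breakdown (chromosome 9, 119338000 to 119348000), 385. Serpina3n, a gene of the acute phase response (chromosome 12, 104398000 to 104408000), scored 273. These 4 bins were in cell 2 alone, and that at the thyroid hormone receptor gene Thra (chromosome 11, 98748000 to 98758000, score 231) was shared with cell 4. Gain bins only in cell 2 lay in Abcc3, a transporter gene of bile salts and conjugates (chromosome 11, 94355000 to 94365000, score 833), and in Adk, the adenosine kinase gene (chromosome 14, 21202000 to 21212000, score 786).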

How the data were processed

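Reduced representation bisulfite libraries of 4 single hepatocytes were each compared with a reference pool by the authors, who deposited a list of bins with less methylation and a list with more for each cell. The deposited score of a bin (0 to 1000) is the authors' own, and the sources used here do not say how bins were called. Per the submitters' processing notes, tools were Bismark 0.7.6, Bowtie2 2.0.0, cutadapt 1.0, Trim Galore 0.2.2 and CASAVA 1.4, on mm10. Depth and covered bins are unknown, and the pool's own values were not used here. Bins of 10000 bp were kept, and 6 entries of 100 bp of cell 2 were left out. Chromosome 10 was not analysed here. Genes came from a RefSeq table (GRCm38.p6, 47283 genes on the chromosomes used) that gives gene ends but no exons, and a gene counted when within 2000 bp of a bin. Of 430 list entries, 403 matched there. Intervals are exact Clopper-Pearson at 95%, and genic shares were compared by Fisher's exact tests adjusted by Benjamini-Hochberg (scipy 1.17.1). The procedures were checked on simulated lists. The simulated bins for the Fisher's exact tests were independent and in groups of equal size, unlike the bins compared here. That check thus does not give the power of the tests made. Genes were named at the 8 lowest loss and 8 highest gain scores among bins only in cell 2 that had a protein-coding or named (not Gm or Rik) gene, with several separate bins or both directions, in a list, or at the 5 shared bins with the largest score difference either way, and 2 of these genes are not reported here. Genes named outside this rule are given as chosen after their values were seen or because they complete a short list. Alternatives changed the overlap that counts as shared, the gene assignment, the score limit and the cells compared. The members and lists were chosen with earlier results of these data known.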

Additional observations from a re-analysis of the deposited data

Results flagged for a closer look

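The median loss score of cell 4, 333, lay far from those of cells 1 to 3 (438, 436.5 and 455), which bears on the score differences between cells 2 and 4 given above. The median gain score of cell 1, 864.5, stood apart from the 833 of each other cell. The median number of genes within 500 kb of a loss bin was 26.5 in cell 3 and 25 in each other cell. These were 3 of 15 measures examined over the 4 cells. For untied values chance gives about 1 in 20, but in the last 2 measures the other 3 cells were tied, so that any different value would have stood apart and that rate does not apply. The 6 entries of 100 bp of cell 2, left out above, were 5 of loss and 1 of gain on chromosomes 5, 7, 8, 9 and 11. On chromosome 9 a loss entry (score 447) and a gain entry (score 818) had the same position, 123273338 to 123273438. Cells 1, 3 and 4 also held this position, so it is not particular to cell 2.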

How the results depend on the processing

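With loss scores at or below, and gain scores at or above, the medians of cell 2, 213 loss and 44 gain bins remained. Leaving out 1 other cell at a time, 65.7 to 77.9% of the loss bins and 95.2 to 98.8% of the gain bins were missing from the rest, the highest without cell 1. Counting any overlap with a gene put 76.3% of the loss bins in genes, and 39.4% of loss and 37.3% of gain bins at gene ends. With protein-coding genes alone 56.3% of loss and 53.0% of gain bins lay in genes and 6.10% of loss bins at gene ends. A 2000 bp limit put 22.8% of loss bins at gene ends. Odds ratios changed side with protein-coding genes for loss against cells 1 (0.975) and 3 (0.931) and gain against cell 1 (1.27). With the stricter scores they changed side for loss against gain (0.972), loss against cell 1 (0.876), and gain against cells 1 (1.21) and 3 (1.43). Over 28 alternatives they ran from 0.236 to 2.32 and the lowest adjusted p of these Fisher's exact tests was 0.266. Counting only bins missing elsewhere left 6 listed genes with loss in place of 10. No paired analysis was possible because each cell is a single library and the pool has no list of its own. Depth limits all calls and is unknown.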
